A study of Mus musculus with 16 samples.

Results

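Nuclear receptors are transcription factors that bind DNA and, in most cases, switch activity when a small lipophilic ligand such as a steroid, thyroid hormone, retinoid, bile acid, oxysterol or fatty acid occupies them. The genes described here are 34 mouse nuclear receptor genes, taken by exact gene name among the 24394 names that 2 liver RNA-seq count tables share, and all 34 were found. They were placed in 4 classes: 8 metabolic receptors, 6 retinoid receptors, 6 receptors for steroid, thyroid and vitamin D hormones, and 14 orphan and related receptors. The clock repressor Nr1d1 was not a member.

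Many of these receptors act as pairs with a retinoid X receptor, and the hormone receptors of the steroid family pair with themselves. In hepatocytes they set the synthesis of bile acids, the burning and storage of fat, gluconeogenesis and the removal of drugs, and Hnf4a is a master regulator of hepatocyte identity. ARID1A and ARID1B are mutually exclusive subunits of the BAF chromatin remodelling complex, which opens chromatin for factors of this kind.

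The libraries were 16 from whole liver, 4 per group. DKO livers carried floxed alleles of both genes and the Cre transgene (ARID1A f/f with ARID1B f/f, Cre-positive), and their controls had ARID1A f/f with ARID1B f/f but no Cre (Alb-Cre-). BKO livers carried ARID1B f/f with Alb-Cre+, and their controls ARID1B f/f with Alb-Cre-. Alb-Cre is a Cre recombinase driven by the albumin promoter, which is active in hepatocytes and also in the hepatoblasts from which bile duct cells arise. In each pair the knockout also differs from its control by the presence of Cre, and no liver lacked Arid1a alone. The sources used here state neither strain nor age. Each library has its own tag, but the tags of the BKO controls F5 and F5-2 share a number, the labels do not state whether these 2 libraries are 1 animal, and that group may therefore hold 3 animals. No label states that the other libraries came from separate animals, and p-values measure only the spread between these libraries. Values per library follow one order throughout: DKO-7068, DKO-7070, DKO-7112 and DKO-7137, controls WT-7067, WT-7069, WT-7114 and WT-7139, BKO F1, F3, F4 and F6, and controls F2, F5-2, F5 and F7.

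A DKO or DKO control library held 8699417 to 11031443 counts and a BKO or BKO control library 21151726 to 40551934, of which the 34 genes together took 0.291% to 0.393% and 0.28% to 0.393%. Levels are normalized CPM, counts scaled to a common library size after TMM scaling, given as mean ± SD over n = 4. Which exons were floxed was not stated in the labels. Arid1b stood at 55.4, 61.4, 78.0 and 45.4 CPM in DKO livers and 80.7, 82.0, 97.1 and 97.3 CPM in their controls, and at 41.7, 46.8, 40.1 and 48.4 CPM in BKO livers and 85.5, 85.5, 86.4 and 81.9 CPM in theirs. Arid1a averaged 108 ± 6.08 CPM in DKO livers and 124 ± 10.2 CPM in their controls, a difference that did not pass the test (adjusted p = 0.149), so its total count is no check of the deletion. Albumin RNA took 3.76% to 6.38% of counts in DKO livers and 8.62% to 9.94% in their controls.

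To compare the 34 genes with each other, levels were divided by the length of each gene's merged exons (CPM per kb). By this measure the same 5 genes led in the control livers of both experiments. Hnf4a was at 198 ± 57.1 CPM per kb in the DKO controls and 147 ± 23.7 in the BKO controls. Ppara, the fatty acid receptor of fasting, was at 136 ± 59.7 and 130.3 ± 38.0 CPM per kb in these groups. Rxra, the common dimer partner, was at 109.9 ± 14.0 and 96.5 ± 8.51. Hnf4a and Ppara, and Ppara and Rxra, did not differ beyond their spread in the DKO controls. Nr1h4, the bile acid receptor FXR, followed at 68.4 ± 5.63 CPM per kb in the DKO controls and 59.8 ± 9.66 in the BKO controls, and Nr1i2, the xenobiotic receptor PXR, at 37.3 ± 5.58 and 32.2 ± 6.09. Nr1i2, Nr1h3, Nr1i3 and Nr2f6 then lay within each other's spread in the DKO controls. The order depends on the annotated exon lengths. Before division, Nr3c1, Rora, Esr1 and Nr1i3 averaged 180, 159, 158 and 144 CPM in the DKO controls, against 95.2 CPM for Nr1i2. At the other end, Hnf4g, Nr2f1 and Vdr held the last 3 ranks in both groups, with Vdr at 0.0204 ± 0.0184 CPM per kb in the DKO controls. Vdr is known for high levels in gut and low levels in hepatocytes. Within a class the spread was wide: among the retinoid X receptors of the DKO controls, Rxrb was at 6.56 ± 0.752 and Rxrg at 2.01 ± 1.02 CPM per kb.

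**Figure D1:**
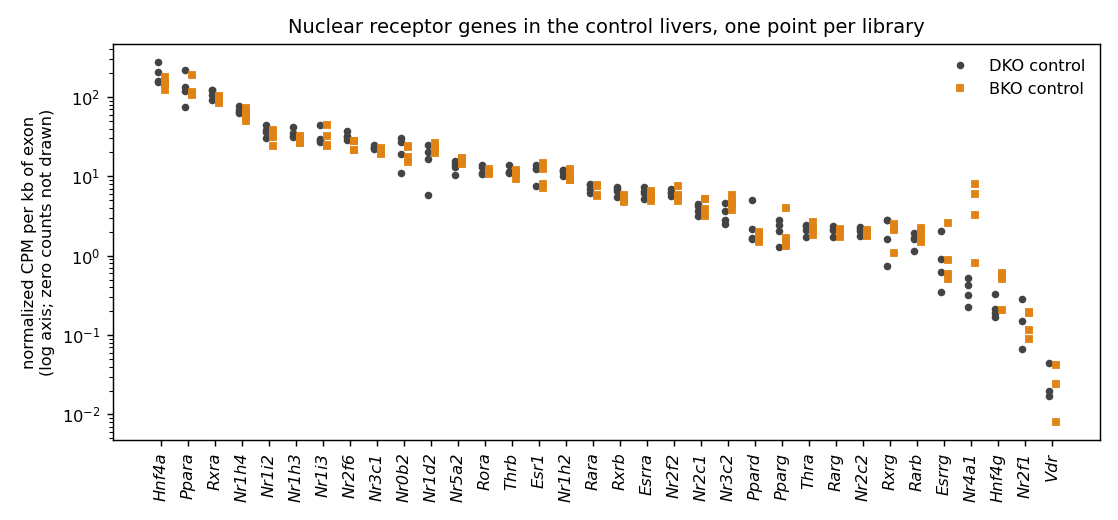
Level of each of the 34 genes in the control livers, in normalized CPM per kb of merged exon on a log axis, with 1 point per library and genes ordered by their mean in the DKO controls. Hnf4a, Ppara, Rxra and Nr1h4 lead in both control groups, and Vdr, Nr2f1 and Hnf4g are lowest.

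In DKO livers 9 of the 31 genes that passed the filter on low counts fell and 2 rose, while 20 did not pass the test. Vdr, Nr2f1 and Hnf4g were below the filter. In whole-liver RNA, fewer cells of a type and less RNA per cell cannot be told apart. The call rule was an adjusted p under 0.05 in edgeR's quasi-likelihood test, with Benjamini-Hochberg adjustment over all genes. Of all 12848 genes tested 35.8% were called, 19.2% higher and 16.6% lower. The members were called at nearly the same rate, 35.5%, with 6.45% higher and 29% lower. Their median log2 fold change was -0.22, against 0.02 over all genes tested. The 3 members of the steroid, thyroid and vitamin D class that fell were of 5 tested (class median -0.47), the 3 metabolic ones of 8 (-0.48), the retinoid one of 6 (-0.16), and the orphan class had 2 higher and 2 lower of 12 (-0.17). DKO and control libraries did not overlap for 8 members that were lower and 2 that were higher, where 16.9% and 18.5% of all genes were apart in these directions. At an unadjusted p under 0.05 there were 13 members of 31, against 45.2% of all genes. With scaling by total counts alone the all-gene median moved to 0.20, the calls over all genes were 72% higher instead of 53.6%, and the members had 3 higher and 5 lower.

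**Figure D2:**
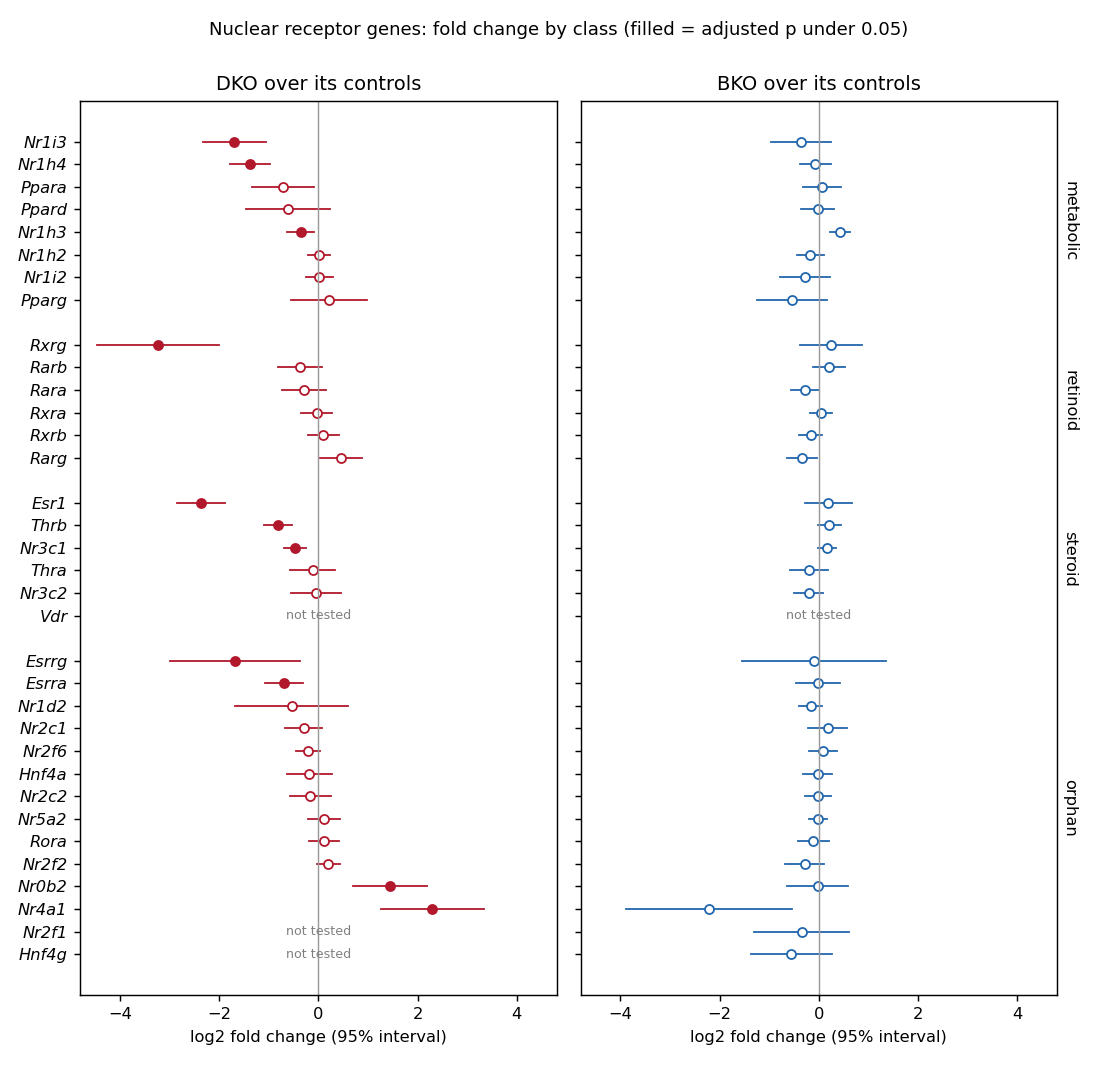
Log2 fold change with its 95% interval for each gene, by class, for DKO livers over their controls (left) and BKO livers over theirs (right). Filled points passed the adjusted threshold: 11 in DKO livers, from -3.22 for Rxrg to 2.30 for Nr4a1, and 0 in BKO livers.

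Among the metabolic receptors, Nr1i3 and Nr1h4 fell most in DKO livers. Nr1i3 encodes CAR, which switches on drug-metabolizing enzymes. Its level was 58.1, 59.8, 32.2 and 28.1 CPM in DKO livers, against 121, 128, 198 and 129.8 CPM in their controls (log2 fold change -1.69, SE 0.28, adjusted p = 0.00161). All 4 DKO values lay below all 4 control values, and WT-7114 was the highest control. Nr1h4, whose product FXR senses bile acids and limits their synthesis, was at 50.0, 61.5, 85.5 and 46.2 CPM in DKO livers and 147, 176, 157 and 151 CPM in controls (log2 fold change -1.37, SE 0.18, adjusted p = 0.00029). The groups were again apart, with DKO-7112 the highest DKO liver. Nr1h3, the oxysterol receptor LXR alpha, was at 61.8, 63.9, 75.7 and 73.9 CPM in DKO livers and 87.3, 79.6, 80.5 and 105 CPM in controls (log2 fold change -0.36, SE 0.12, adjusted p = 0.0413). This smaller fall did not pass when DKO-7068, DKO-7070, WT-7067 or WT-7139 was left out, with adjusted p = 0.101, 0.0922, 0.074 and 0.0965, and over 19 alternatives its adjusted p ran from 0.00953 to 0.2145.

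The other oxysterol receptor, Nr1h2, averaged 38.7 ± 3.15 CPM in DKO livers and 38.2 ± 2.97 CPM in controls (adjusted p = 0.914). Nr1i2 was at 94.8, 85.8, 104 and 101 CPM in DKO livers and 92.3, 98.9, 112 and 77.7 CPM in controls. These Nr1i2 values interleave, and the 95% interval of its log2 fold change was -0.26 to 0.30. So of the pair of xenobiotic receptors, 1 fell and the other did not pass the test; whether their changes differ was not tested. Ppara was at 319, 319.7, 380.1 and 259 CPM in DKO livers and 459, 512, 833 and 284 CPM in controls (log2 fold change -0.71, SE 0.28, adjusted p = 0.0758). The DKO and control values overlap only through WT-7139, and without that control the adjusted p was 0.0127, within a range of 0.0127 to 0.2015 over 19 alternatives. Ppard, a fatty acid receptor of wide expression, averaged 12.9 ± 2.64 CPM in DKO livers and 19.8 ± 12.4 CPM in controls, the control SD coming from 1 library at 38.2 CPM. Pparg, the fat storage receptor, averaged 7.42 ± 3.61 and 6.37 ± 1.96 CPM (adjusted p = 0.678).

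Nr1i3 lies at chr1:171213970-171220701 on the plus strand and Nr1h4 at chr10:89454234-89533585 on the minus strand (GRCm38, GENCODE M21). The promoter letters of the 4 members that changed by at least 1 on the log2 scale and have 1 start in RefSeq are shown for the genes that moved in each direction. They are the 250 bases before that start on GRCm38.p6, 5′ to 3′ on the gene's strand, from the RefSeq promoter table. Capitals mark matches, on either strand, to 4 short motifs: AGGTCA, the half-site that nuclear receptors bind; TCAAGG, the start of the extended half-site bound by NR5A2 and the estrogen related receptors, which shares 3 bases with AGGTCA where both occur in that site; TGCGTCA, a CRE-like element; and TGACTCA, the AP-1 element. The Nr1i3 window was chr1:171213720-171213969 and holds TGAGTCA, the AP-1 element read from the other strand, from -109 to -103 relative to the start. The Nr1h4 window was chr10:89506659-89506908, inside the span of the GENCODE gene, and holds TGACCT, the half-site on the other strand, from -214 to -209.
Nr1i3: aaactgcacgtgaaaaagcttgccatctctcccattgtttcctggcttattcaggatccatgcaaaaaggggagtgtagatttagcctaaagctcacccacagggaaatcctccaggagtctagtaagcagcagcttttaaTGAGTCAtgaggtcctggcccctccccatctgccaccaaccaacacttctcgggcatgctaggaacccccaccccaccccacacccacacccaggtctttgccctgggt
Nr1h4: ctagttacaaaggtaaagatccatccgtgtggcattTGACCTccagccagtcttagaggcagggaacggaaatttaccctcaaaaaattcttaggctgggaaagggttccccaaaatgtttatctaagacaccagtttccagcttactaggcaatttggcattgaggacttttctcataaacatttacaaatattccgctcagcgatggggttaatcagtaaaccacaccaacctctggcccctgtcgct
Across all 32851 promoter windows of this length, 14% hold AGGTCA, 12.5% TCAAGG, 1.75% TGCGTCA and 4.46% TGACTCA. The 31 members found in the table have 49 windows, of which 18.4% hold AGGTCA, 12.2% TCAAGG, 2.04% TGCGTCA and 4.08% TGACTCA. A match describes these letters and is not evidence of binding.

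The exons of Nr1i3 overlap those of Tomm40l on the opposite strand, and the labels do not state whether counting used strand. Tomm40l also fell, to 53.3 ± 18.7 CPM in DKO livers, against 135 ± 47.9 CPM in controls (adjusted p = 0.00816). Reads of the 2 genes cannot be told apart where they overlap, and the fall of Nr1i3 carries that limit. Nr1h3 shares exon sequence with the annotated model Gm13783, and Nr1h4 overlaps no other exon.

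Genes known to be driven by these receptors moved both ways. Of 11 FXR targets tested, 2 rose, 3 fell and 6 did not pass, with a median of 0.08. Baat, which joins bile acids to amino acids, was at 99.6 ± 10.9 CPM in DKO livers and 204 ± 29.8 CPM in controls (log2 fold change -1.04, adjusted p = 0.00025). Slc51b, a bile acid exporter of the basolateral membrane, was at 5.34, 5.58, 7.71 and 11.9 CPM in DKO livers and 0.336, 0.477, 0.224 and 0.252 CPM in controls. The Slc51b groups were far apart, with low counts in every control. Of 18 CAR and PXR targets, 5 rose, 9 fell and 4 did not pass (median -0.71). Abcc3, a conjugate exporter, was at 51.2 ± 18.0 CPM in DKO livers and 299 ± 25.1 CPM in controls (log2 fold change -2.55, adjusted p = 2.28e-05), and Cyp2b9, a female-biased cytochrome P450, was at 24.3 ± 18.4 CPM in DKO livers and 521 ± 51.9 CPM in controls (log2 fold change -4.42, adjusted p = 0.000518). The test held no term for the sex of the livers. Akr1b7, an aldo-keto reductase, rose to 30.8 ± 20.5 CPM in DKO livers, against 0.51 ± 0.178 CPM in controls. Of 14 LXR targets, 3 rose, 4 fell and 7 did not pass (median -0.14). Lpl, lipoprotein lipase, stood at 296 ± 31.2 CPM in DKO livers and 16.6 ± 6.21 CPM in controls (log2 fold change 4.16, adjusted p = 6.88e-06), while Srebf1, the driver of fatty acid synthesis, stood at 223 ± 32.3 CPM in DKO livers and 691 ± 332 CPM in controls (log2 fold change -1.63, adjusted p = 0.0025). Of 22 PPARA targets, 2 rose, 9 fell and 11 did not pass (median -0.52). Hadha, a subunit of the mitochondrial trifunctional protein of fatty acid oxidation, was at 197 ± 16.6 CPM in DKO livers and 335 ± 48.4 CPM in controls (log2 fold change -0.77, adjusted p = 0.00173). Target lists were chosen with earlier results known, and several genes answer to more than 1 receptor.

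In the retinoid class, 1 gene passed the test in DKO livers. Rxrg, per kb of exon the lowest of the retinoid X receptors in the control livers, was at 0.246, 0.54, 0.977 and 0.207 CPM in DKO livers and 3.69, 1.72, 6.51 and 6.56 CPM in controls (log2 fold change -3.22, SE 0.55, adjusted p = 0.00138). The groups did not overlap, and DKO libraries held 2 to 9 counts against 18 to 58 in controls, so the size of the fall is imprecise (95% interval -4.45 to -1.99). Rxrg lies at chr1:167598384-167639623. Rxra, which carries most of the retinoid X receptor RNA in liver, was at 545, 561, 666 and 574 CPM in DKO livers and 573, 661, 663 and 503 CPM in controls. Its values interleave and its interval was -0.35 to 0.28 on the log2 scale. Rxrb averaged 28.0 ± 4.96 CPM in DKO livers and 26.1 ± 2.99 CPM in controls (adjusted p = 0.612).

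The 3 retinoic acid receptors did not pass the test. Rara averaged 26.0 ± 8.35 CPM in DKO livers and 31.6 ± 3.81 CPM in controls, and only without DKO-7112 was it called lower (-0.55, adjusted p = 0.0115; range over 19 alternatives 0.0115 to 0.695). Rarb, itself a retinoic acid target and known in stellate cells, averaged 6.43 ± 1.01 and 8.38 ± 1.74 CPM (adjusted p = 0.172). Rarg stood at 14.0, 13.3, 13.2 and 8.19 CPM in DKO livers and 10.1, 9.26, 8.97 and 7.32 CPM in controls, a log2 fold change of 0.45 (SE 0.19, adjusted p = 0.0905). DKO-7137 alone lay within the control range, and without it Rarg was called higher (0.59, adjusted p = 0.0138, in a range of 0.0138 to 0.2365). Of 12 genes of retinoid response and metabolism, 4 rose, 5 fell and 3 did not pass (median -0.08). Over all genes tested, 19.2% were higher and 16.6% lower. Aldh1a1, which makes retinoic acid, was at 140.0 ± 17.4 CPM in DKO livers and 458 ± 88.6 CPM in controls (log2 fold change -1.71, adjusted p = 5.15e-05), and it also counts among the CAR and PXR targets.

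Of the steroid and thyroid class, Esr1, Thrb and Nr3c1 fell in DKO livers. Esr1 encodes estrogen receptor alpha, which mediates estrogen action in liver (chr10:4611593-5005614). It was at 25.0, 27.7, 40.8 and 29.7 CPM in DKO livers, against 169, 189, 102 and 173 CPM in controls. The lowest control, WT-7114, was still above the highest DKO liver (log2 fold change -2.36, SE 0.22, adjusted p = 4.42e-05). Thrb, the main thyroid hormone receptor of liver (chr14:17660261-18038090), was at 42.6, 46.6, 53.4 and 58.3 CPM in DKO livers and 81.2, 84.6, 83.3 and 103 CPM in controls (log2 fold change -0.81, SE 0.13, adjusted p = 0.000803). Nr3c1, the glucocorticoid receptor, was at 129, 125, 145 and 119 CPM in DKO livers and 176, 172, 181 and 189.9 CPM in controls (log2 fold change -0.47, SE 0.10, adjusted p = 0.00552). For both, no DKO liver reached the lowest control, though the fall of Nr3c1 did not pass under scaling by total counts alone (-0.29, adjusted p = 0.0731, the highest of its 19 alternatives, which start at 1.30e-05). Thra, the other thyroid hormone receptor, averaged 9.17 ± 2.55 CPM in DKO livers and 9.87 ± 1.42 CPM in controls, and Nr3c2, the mineralocorticoid receptor, 21.2 ± 5.51 and 21.8 ± 6.03 CPM, with adjusted p = 0.716 and 0.901. Thra exons overlap those of Nr1d1. Vdr had at most 4 counts in a DKO library and 2 in a control, and was not tested.

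Of 8 thyroid hormone targets, 2 rose, 5 fell and 1 did not pass (median -1.03). Thrsp, a lipogenic factor, was at 26.4, 6.21, 12.4 and 9.95 CPM in DKO livers and 1651, 628, 618 and 815 CPM in controls. All DKO values were far below the controls. Hr, a corepressor that thyroid hormone induces, rose to 6.07 ± 3.34 CPM in DKO livers, against 0.817 ± 0.542 CPM in controls (log2 fold change 2.90, adjusted p = 0.00277). Of 15 glucocorticoid receptor targets, 4 rose, 6 fell and 5 did not pass (median -0.63). Tat, tyrosine aminotransferase, was at 1122 ± 496 CPM in DKO livers and 3481 ± 1412 CPM in controls (log2 fold change -1.63, adjusted p = 0.00899), and Lpin1, a phosphatidate phosphatase, was at 472 ± 122 CPM in DKO livers and 1317 ± 392 CPM in controls (log2 fold change -1.48, adjusted p = 0.00149).

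**Figure D3:**
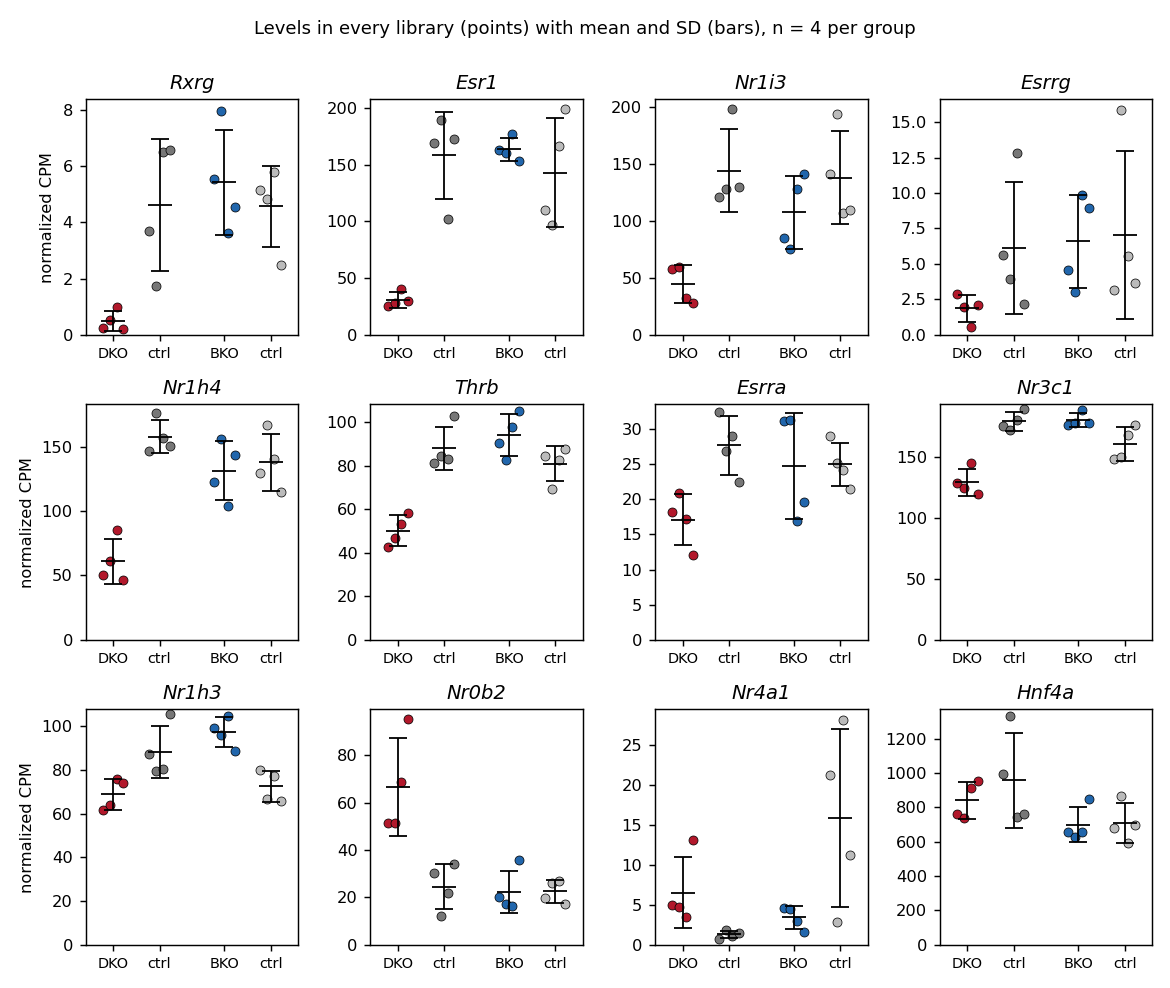
Normalized CPM in every library for the 11 members called in DKO livers and for Hnf4a, with DKO left of its controls and BKO left of its controls (ctrl). Points are libraries and bars the mean and SD of 4. Esr1, Nr1i3, Nr1h4, Thrb and Nr3c1 are lower in all DKO libraries than in any of their controls, Nr0b2 and Nr4a1 higher, and Hnf4a overlaps.

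In the orphan class, Nr0b2 and Nr4a1 rose. Nr0b2 encodes SHP, a repressor without a DNA-binding domain that FXR induces and that holds down bile acid synthesis (chr4:133553376-133556536). It was at 51.2, 51.5, 68.8 and 95.2 CPM in DKO livers and 30.3, 12.3, 21.9 and 33.9 CPM in controls (log2 fold change 1.44, SE 0.33, adjusted p = 0.00872). Every DKO value was above every control, in the same livers in which Nr1h4 was lower. Nr4a1, an immediate early gene (chr15:101254269-101274795), was at 4.93, 4.68, 3.47 and 13.1 CPM in DKO livers and 0.784, 1.81, 1.12 and 1.51 CPM in controls (log2 fold change 2.30, SE 0.47, adjusted p = 0.00373). DKO-7137 was the highest, and the other 3 DKO livers were also above all controls. Its relative Nr4a3 also rose, to 2.46, 4.05, 3.47 and 2.07 CPM in DKO livers, against 0.224, 0.286, 1.01 and 0.505 CPM in controls (adjusted p = 0.00138), with no overlap. The promoter windows of the pair that rose are chr4:133553126-133553375 for Nr0b2, with TCAAGG from -68 to -63 and from -35 to -30, and chr15:101266596-101266845 for Nr4a1, which starts within the longer GENCODE gene and has TGCGTCA at -235, -215, -71 and -42 (first base).
Nr0b2: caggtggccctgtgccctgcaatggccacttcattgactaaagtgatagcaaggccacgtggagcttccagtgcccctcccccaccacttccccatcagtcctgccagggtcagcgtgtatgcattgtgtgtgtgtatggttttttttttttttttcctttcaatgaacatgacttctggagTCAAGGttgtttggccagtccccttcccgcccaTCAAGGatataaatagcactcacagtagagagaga
Nr4a1: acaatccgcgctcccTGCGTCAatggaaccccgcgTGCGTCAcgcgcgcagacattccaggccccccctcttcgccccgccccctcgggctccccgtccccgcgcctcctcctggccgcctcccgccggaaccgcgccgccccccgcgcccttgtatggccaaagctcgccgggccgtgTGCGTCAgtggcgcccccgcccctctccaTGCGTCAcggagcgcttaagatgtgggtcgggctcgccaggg

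Esrra and Esrrg, orphan receptors of mitochondrial and energy genes, fell. Esrra (chr19:6910977-6921813) was at 18.1, 20.9, 17.3 and 12.1 CPM in DKO livers and 32.5, 26.9, 28.9 and 22.5 CPM in controls (log2 fold change -0.69, SE 0.17, adjusted p = 0.0103). The groups were just apart, and under total-count scaling the change was -0.50 (adjusted p = 0.0876, the highest of 19 alternatives, which start at 0.00193). Its exons overlap those of Trmt112 on the opposite strand, which did not pass the test (adjusted p = 0.192). Esrrg (chr1:187608791-188214885) was at 2.87, 1.98, 0.543 and 2.07 CPM in DKO livers and 5.60, 3.91, 12.8 and 2.15 CPM in controls (log2 fold change -1.68, SE 0.58, adjusted p = 0.0499). The highest DKO value exceeded the lowest control, and the mean of the controls rests on WT-7114, without which the change was -1.05 (adjusted p = 0.131). Leaving out DKO-7070, DKO-7112, DKO-7137, WT-7067 or WT-7069 also ended the call (-1.72, -1.42, -1.73, -1.73 and -1.86), and Esrrg was called in 6 of 19 alternatives.

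Hnf4a did not pass the test. It was at 762, 739, 913 and 952 CPM in DKO livers and 995, 1333, 743 and 758 CPM in controls, with WT-7069 the highest of all (log2 interval -0.64 to 0.27, adjusted p = 0.519). Of 18 genes known as HNF4A targets, 2 rose, 10 fell and 6 did not pass (median -0.56). Over all genes tested, 19.2% were higher and 16.6% lower. Apoc3, an apolipoprotein that slows triglyceride clearance, was at 269 ± 94.1 CPM in DKO livers and 1180.1 ± 109 CPM in controls (log2 fold change -2.14, adjusted p = 0.000124). Cyp8b1, the sterol 12-hydroxylase of cholic acid synthesis, was at 15.5 ± 11.9 CPM in DKO livers and 245 ± 102 CPM in controls (log2 fold change -3.98, adjusted p = 0.00328). Nr5a2 (LRH-1), a driver of bile acid genes, averaged 85.2 ± 9.73 CPM in DKO livers and 78.9 ± 13.8 CPM in controls, and Rora, a clock activator, 172 ± 24.0 and 159 ± 19.9 CPM, with adjusted p = 0.582 and 0.561. The clock repressor Nr1d2 was at 61.7, 74.8, 89.4 and 25.2 CPM in DKO livers and 88.3, 111, 133 and 31.4 CPM in controls. DKO-7137 and WT-7139 were the lowest of their groups and far below the other libraries. With both left out, Nr1d2 was called lower (-0.56, adjusted p = 0.0487, the lowest of a range that reaches 0.7058 over 19 alternatives). The COUP factors Nr2f2 and Nr2f6 and the testicular receptors Nr2c1 and Nr2c2 had log2 fold changes of 0.20, -0.22, -0.30 and -0.16, none of which passed. Nr2f1 averaged 1.09 ± 0.331 CPM in DKO livers and 0.639 ± 0.628 CPM in controls, and Hnf4g 0.402 ± 0.265 and 0.593 ± 0.183 CPM, both untested.

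Of 21 coregulators that receptors recruit, 2 rose, 2 fell and 17 did not pass in DKO livers (median 0.02). Over all genes tested, 19.2% were higher and 16.6% lower. Ncoa7 was at 7.90 ± 0.884 CPM in DKO livers and 3.74 ± 0.54 CPM in controls. Ncoa1, the steroid receptor coactivator SRC-1, was at 37.1 ± 4.57 and 48.2 ± 2.42 CPM.

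Markers of other cell types moved beside these changes. Summed over 9 listed genes, hepatocyte markers ran from 54581 to 84672 CPM in DKO livers and from 114810.0 to 141393 CPM in controls. Albumin, whose share of counts is given above, makes up most of these sums. Of the hepatocyte markers, 7 of 8 tested were lower, Serpina1a and Ttr among them. Bile duct markers summed to 127.7 to 928 CPM in DKO livers and 42.9 to 64.2 CPM in controls (4 higher of 6 tested, Prom1 and Bicc1 leading). Stellate cell and fibroblast markers summed to 1931 to 2909 CPM in DKO livers and 568 to 768 CPM in controls, with 6 higher and 3 lower of 12 (Pdgfrb higher, Ecm1 lower). Recruited macrophage markers ran from 202 to 288 CPM in DKO livers and from 53.5 to 74.7 CPM in controls (9 higher of 10, Mmp12 and Cx3cr1 leading), and Kupffer cell markers from 626 to 691 and from 393 to 667 CPM (5 higher of 10, C1qc and C1qb leading). Endothelial markers ran from 530.0 to 599 CPM in DKO livers and from 559 to 705 CPM in controls (1 higher and 4 lower of 11, Bmp2 and Dnase1l3 lower), and lymphocyte markers from 3.94 to 8.10 and from 2.02 to 5.16 CPM, with 0 tested. The Kupffer, endothelial and lymphocyte sums overlapped between DKO livers and controls, and 5 of the 10 Kupffer markers did not pass. None of the markers in these 7 lists had 0 counts over a whole group. Their part in the receptor changes was not tested.

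In BKO livers, 0 of the 33 members tested passed in edgeR's test, where 0.583% of 14061 genes did (0.185% higher and 0.398% lower). At an unadjusted p under 0.05 there were 3 members, against 11.6% of all genes. The DESeq2 Wald test called 1 member, Nr1h3, and limma voom called 0. The member median was -0.07, against 5.14e-05 over all genes tested. With scaling by total counts alone, 20.4% of calls over all genes were higher instead of 31.7%. Nr1h3 was at 99.4, 96.2, 105 and 88.7 CPM in BKO livers and 79.9, 66.9, 77.4 and 65.6 CPM in their controls (log2 fold change 0.42, SE 0.10, adjusted p = 0.0768). It was the only member whose groups did not overlap, where 3.64% of all genes were apart with BKO higher and 3.36% with BKO lower, and its adjusted p ran from 0.00673 to 0.215 over 17 alternatives. Nr4a1 was at 4.56, 4.53, 3.02 and 1.56 CPM in BKO livers and 21.3, 2.85, 28.1 and 11.3 CPM in controls (log2 fold change -2.22, SE 0.71, adjusted p = 0.296). Control F5-2 lay among the BKO values, and the other 3 controls were higher. Summing F5 and F5-2, which share a tag number, gave an adjusted p of 0.0432, within 0.0432 to 0.486 over 17 alternatives. Rarg was at 6.82, 6.54, 7.51 and 6.32 CPM in BKO livers and 7.41, 8.61, 9.13 and 9.04 CPM in controls (log2 fold change -0.33, SE 0.14, adjusted p = 0.382), with the highest BKO value just above the lowest control.

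The 5 receptors with the largest falls in DKO livers were Rxrg, Esr1, Nr1i3, Esrrg and Nr1h4, and none of them passed in BKO livers. Rxrg was at 5.54, 7.97, 3.63 and 4.53 CPM in BKO livers and 5.14, 4.81, 5.80 and 2.50 CPM in controls (95% interval -0.39 to 0.88 on the log2 scale). Esr1 was at 163, 160.5, 177 and 153 CPM in BKO livers and 109.8, 96.4, 167 and 199 CPM in controls, and its BKO values lay inside the control range. Nr1i3 was at 85.5, 75.8, 128 and 141 CPM in BKO livers and 142, 194, 107 and 109 CPM in controls (95% interval -0.96 to 0.24 on the log2 scale). Esrrg was at 4.56, 3.03, 9.83 and 8.93 CPM in BKO livers and 3.15, 15.8, 5.53 and 3.68 CPM in controls, with F5-2 the highest library (interval -1.56 to 1.36). Nr1h4 was at 122, 156, 104 and 143 CPM in BKO livers and 129, 167, 141 and 114 CPM in controls (interval -0.38 to 0.24). All 5 overlap between groups, where 3.64% of all genes were apart with BKO higher and 3.36% with BKO lower. Of the liver receptors that did not pass in either knockout, Nr1i2 was at 67.6, 42.8, 90.2 and 71.03 CPM in BKO livers and 81.0, 87.0, 62.0 and 99.2 CPM in controls, with F3 the lowest. Ppara was at 459, 589, 494 and 553 CPM in BKO livers and 423, 717, 448 and 411 CPM in controls. Hnf4a averaged 698 ± 101 CPM in BKO livers and 709 ± 114 CPM in controls, and Rxra 544 ± 42.4 and 527 ± 46.5 CPM. Their intervals were -0.31 to 0.27 and -0.17 to 0.26 on the log2 scale. The remaining tested members had log2 fold changes from -0.55 for Hnf4g and -0.54 for Pparg to 0.21 for Thrb.

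Neither xenobiotic receptor passed in BKO livers. There, 3 of the 18 CAR and PXR targets fell and 15 did not pass (median -0.06). Over all genes tested in BKO livers, 0.185% were higher and 0.398% lower. Cyp3a11, the main drug-oxidizing P450 that PXR induces, was at 105, 72.0, 151 and 78.1 CPM in BKO livers and 871, 906, 685 and 874 CPM in controls (log2 fold change -3.04, adjusted p = 0.00154). The groups were far apart. In the other experiment Cyp3a11 was at 1218, 1019, 941 and 2117 CPM in DKO livers and 1417, 1401, 1581 and 2099 CPM in controls, which overlap. Abcc3 was at 208 ± 18.4 CPM in BKO livers and 342 ± 40.2 CPM in controls (log2 fold change -0.72, adjusted p = 0.0149), and Aldh1a1 at 147 ± 28.3 CPM in BKO livers and 320.1 ± 90.9 CPM in controls (log2 fold change -1.12, adjusted p = 0.0415). Rarres1, a retinoic acid responsive gene, was at 4.12 ± 1.03 CPM in BKO livers and 11.6 ± 1.09 CPM in controls (log2 fold change -1.49, adjusted p = 0.00392) and, with Aldh1a1, made 2 of 13 retinoid genes that fell. In the other 8 pathway lists 0 genes passed. Hepatocyte markers summed to 94065 to 117302 CPM in BKO livers and 92329 to 102703 CPM in their controls, with 0 of 9 called.

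The difference between the 2 knockout effects, each over its own controls, was tested over all 16 libraries. It passed for 10 of 33 members, 3 higher and 7 lower in DKO, or 30.3%, where 22.5% of 14050 genes passed (11.0% higher and 11.5% lower). At an unadjusted p under 0.05 there were 13 members, against 34.9% of all genes. The member median was -0.18, against -0.01 over all genes tested. With scaling by total counts alone, 77.9% of the calls over all genes were higher instead of 49.1%, and the members had 4 higher and 5 lower. The members with a lower DKO effect were Rxrg at -3.51 (SE 0.65, adjusted p = 0.00111), Esr1 at -2.59 (SE 0.32, adjusted p = 4.92e-05), Nr1i3 at -1.36, Nr1h4 at -1.34, Thrb at -1.05, Nr1h3 at -0.82 and Nr3c1 at -0.67. Nr4a1 at 4.48 (SE 0.93, adjusted p = 0.0035), Nr0b2 at 1.43 and Rarg at 0.75 had a higher DKO effect. The Nr4a1 difference takes in its BKO fold change of -2.22, which did not pass. Nr4a1 averaged 1.31 ± 0.450 CPM in the DKO controls and 15.9 ± 11.1 CPM in the BKO controls. Of these 10 members, 8 had fold changes of opposite sign in the 2 experiments, all but Nr1i3 and Nr1h4, and none of the BKO fold changes passed on its own in edgeR's test. The BKO intervals of Rxrg, Esr1, Thrb, Nr3c1 and Nr0b2 included no change, so their sign in BKO livers is uncertain. The BKO fold change of Nr0b2 was -0.02 on the log2 scale. In each of 26 alternatives the difference passed for Nr1h3, Nr1h4, Rxrg, Esr1 and Thrb.

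The differences of the other 5 members lost their call under some alternatives. Under scaling by total counts alone Nr1i3 (-1.06, adjusted p = 0.115) and Nr3c1 (-0.39, adjusted p = 0.0599) did not pass, and with limma voom Nr4a1 did not (3.98, adjusted p = 0.0897). Nr0b2 did not pass with no filter on low counts (1.41, adjusted p = 0.0644), with F5 and F5-2 summed (1.35, adjusted p = 0.0608) or with WT-7114 and F5-2 both left out (1.29, adjusted p = 0.1103). Of single libraries, the call of Nr0b2 was lost without DKO-7112, DKO-7137, WT-7069, WT-7114, F1, F3, F4, F5-2 or F5, with differences of 1.2 to 1.41 and adjusted p from 0.0517 to 0.0719. Nr1i3 lost its call without DKO-7112, WT-7114, F5 or F6 (-1.25 to -1.18, adjusted p 0.0503 to 0.0537), and Rarg without DKO-7068, DKO-7070 or WT-7139 (0.66 to 0.70, adjusted p 0.0526 to 0.0567). Nr1i3 also lost it without DKO-7137 and WT-7139 together (-1.25, adjusted p = 0.0553), and Rarg without WT-7114 and F5-2 together (0.74, adjusted p = 0.0572), where Nr4a1 was the only member with a higher DKO effect. On leaving out 1 library, calls were gained for Ppara without WT-7139 or F5-2 (-1.03 in both), Rarb without WT-7069 or F5 (-0.75 and -0.72), Esrra without F4 (-0.85), Esrrg without F5-2 (-2.39) and Nr2f2 without F3 (0.62), and under total-count scaling for Nr2f2 (0.73, adjusted p = 0.0428).

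Receptor levels also varied among control livers. WT-7114 and F5-2 had the highest Ppara of their control groups, 833 and 717 CPM, and also the highest Nr1i3 (198 and 194 CPM), Esrrg (12.8 and 15.8 CPM) and Pparg (8.41 and 11.8 CPM). Both had the lowest Esr1 of their groups, 102 and 96.4 CPM. Of 22 PPARA target genes, 20 were highest in WT-7114 among the DKO controls and 21 in F5-2 among the BKO controls. Plin2, which coats lipid droplets, was at 354 CPM in WT-7114 and 97.4 to 114 CPM in the other DKO controls, and at 293 CPM in F5-2 and 125 to 135 CPM in the other BKO controls. These libraries were picked out after their values were seen, and the labels give no feeding state or time of collection. PPARA target counts in DKO livers were 3 higher and 7 lower without WT-7114.

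**Figure D4:**
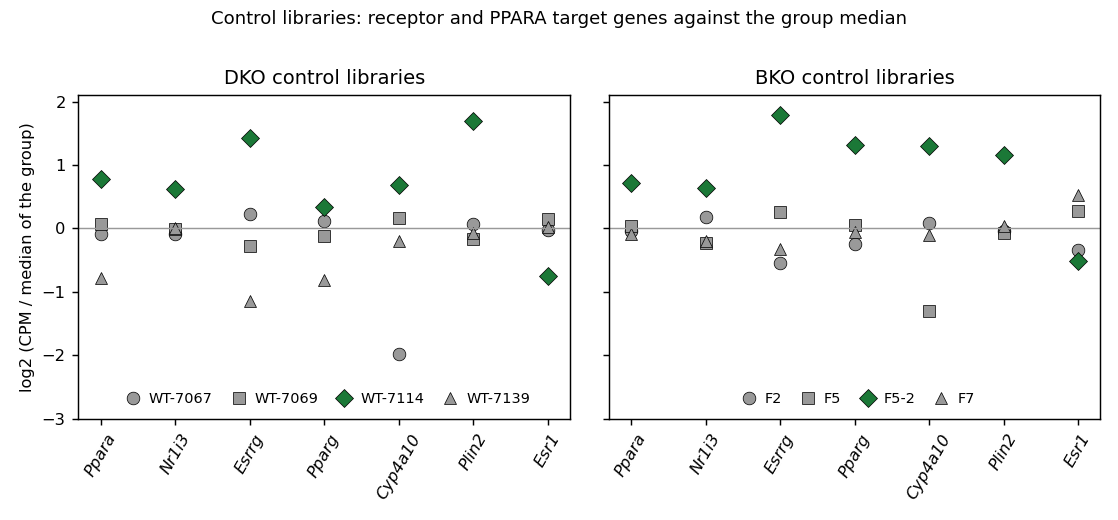
Log2 ratio of each control library to the median of its group for Ppara, Nr1i3, Esrrg, Pparg, 2 PPARA target genes and Esr1, genes chosen after their values were seen, with DKO controls left and BKO controls right. WT-7114 and F5-2 (diamonds) are highest in the first 6 genes and lowest for Esr1.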

How the data were processed

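Per the labels, liver RNA came from TRIzol extraction and a NuGEN Ovation kit was used for the libraries. The authors deposited raw counts of reads per gene, 1 table per experiment, with 24421 rows each and 0 columns left without a sample. The submitters' processing notes name featureCounts 1.6.2, HISAT2 2.1.0 and Trim Galore 0.4.1, and the builds GRCm38, mm10 and GRCh38. Annotation, strand setting and treatment of shared reads were not stated. Of the BKO names, 27 had turned into dates, so the joint fit used 24394 genes. A row for ribosomal RNA precursor (Rn45s) stayed in. It took 8.57% to 10.8% of counts in DKO livers and 7.05% to 8.35% in their controls. In BKO livers its share was 12.5% to 23.4%, highest in F1, and in their controls 12.8% to 18.1%.

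The test was edgeR 4.0.16 in R 4.3.3 (filterByExpr with a minimum count of 10, TMM, robust quasi-likelihood fits) within each experiment, and over 16 libraries for the difference of effects. An adjusted p under 0.05 was a call. The steps were first tested on simulated data. Alternatives were other scalings and filters, DESeq2 1.42.0, limma 3.58.1 with voom, each library left out, 1 fit of all libraries, the tag series as a block, and summed or omitted pairs of libraries. The tag series is the leading digits of the tags in the DKO experiment, and the labels do not state what these digits mark. Members, lists and tests were chosen with earlier results of these data known. All 34 members were named, with values per library for those called and for 6 receptors that mark liver, and up to 4 genes by p of each pathway list and 2 of each cell type list could be named. Some list genes were named outside that rule after their values were seen (Cyp3a11 in DKO livers, Plin2 and Cyp4a10). Exon lengths and overlaps came from GENCODE M21, where 34 members matched by symbol and 11 share exon bases with another gene. Promoters were matched by symbol in RefSeq on GRCm38.p6 for 31 members. Fold changes on the log2 scale have the knockout over its control. Some list genes are not reported here.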

Additional observations from a re-analysis of the deposited data

Results flagged for a closer look

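The value of each member in each group of 4 was compared with its neighbours by Dixon's gap rule at 95%, and 10 of 128 groups were set apart, where chance gives about 1 in 20. Among the DKO livers, DKO-7137 was the low library for Rarg at 8.19 CPM and the high one for Nr4a1 at 13.1 CPM. Among the DKO controls, WT-7114 stood high for Nr1i3 at 198 CPM, and WT-7139 stood high for Ppard at 38.2 CPM and for Thrb at 103 CPM. Among the BKO livers, F1 was low for Rara at 20.1 CPM, F4 high for Nr3c1 at 189 CPM and F6 high for Hnf4a at 848 CPM. Among the BKO controls, F5-2 was high for Ppara at 717 CPM and for Pparg at 11.8 CPM.

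The effect of the DKO genotype differed from that of the BKO genotype, by the interaction test in edgeR over 16 libraries, for 10 members. On the log2 scale the DKO effect minus the BKO effect was -3.51 for Rxrg, -2.59 for Esr1, -1.36 for Nr1i3, -1.34 for Nr1h4, -1.05 for Thrb, -0.82 for Nr1h3 and -0.67 for Nr3c1. It was 4.48 for Nr4a1, 1.43 for Nr0b2 and 0.75 for Rarg. The Nr4a1 controls averaged 1.31 CPM in the DKO experiment and 15.9 CPM in the BKO experiment. For 8 of them, all but Nr1i3 and Nr1h4, the BKO fold change had the opposite sign, and none passed on its own. The BKO intervals of Rxrg, Esr1, Thrb, Nr3c1 and Nr0b2 included no change.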

How the results depend on the processing

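Of the 11 members called in DKO livers, 7 (Nr1h4, Nr1i3, Rxrg, Nr4a1, Nr0b2, Esr1 and Thrb) were called under each of 19 alternatives. No member fold change or difference that was called reversed its direction under an alternative. With total counts as the only scaling, 5 members were lower in DKO livers instead of 9, and the median of all genes moved to 0.20 in DKO livers and to 0.27 for the difference. Leaving out 1 library gave 3840 to 4584 genes called in DKO livers, 2 to 3 members higher and 7 to 9 lower. In BKO livers the 82 genes called became 355 with the DESeq2 Wald test and 50 with all 16 libraries in 1 fit, and 17 to 104 with 1 library left out. There, 1 member was called higher with DESeq2 and 1 lower with F5 and F5-2 summed, and 0 with any 1 library left out. For the difference, leaving out 1 library gave 2618 to 3314 genes, 2 to 3 members higher and 6 to 9 lower, and leaving out WT-7114 and F5-2 together, an alternative chosen after the data were seen, like the omission of DKO-7137 and WT-7139 and, for the difference, the sum of F5 and F5-2, gave 1 member higher. No paired analysis was run, because the labels do not state that any knockout library is paired with a control library. Some DKO and control tags are close in number, such as DKO-7137 and WT-7139, and what this marks is not stated. The tag series, which both DKO groups span, could be used as a block and gave 4816 genes called in DKO livers, 2 members higher and 8 lower, Esrrg losing its call (-1.67, adjusted p = 0.0741). Depth limits Vdr, Nr2f1 and Hnf4g in the DKO experiment, which were too low to test, and makes the fold of Rxrg imprecise. With 4 libraries a group, a member that did not pass may still differ by any amount inside its interval. The labels name no batch, and batches, Cre itself and cell composition cannot be told apart from genotype here.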
